A study of Mus musculus with 6 samples.

Results

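The genes described here are 10 markers of hippocampal pyramidal neurons, measured in RNA of isolated cells described as DGCs, read here as dentate granule cells. They were taken by name: each probe set whose annotation holds exactly 1 gene symbol, that symbol being one of the 10, was used. This gave 12 of the 45037 probe sets other than controls, and 10 of 18193 genes with a symbol of their own. Pou3f1 and Cpne4 had 2 probe sets each and the other 8 genes had 1. The arrays come from 2 transgenic mice of a series titled as HuD overexpressors and from 2 control mice, with 3 arrays per group. In both groups a single array is described as mouse 1 and a pair as mouse 2. The arrays of a pair are called array 1 and array 2 here, which are names only. The titles of transgenic mouse 1, transgenic mouse 2 array 1 and control mouse 1 carry the tag re-LCM, which the labels do not explain. For transgenic mouse 2 array 1 it reads re-LCM block, and this array is counted here with the tagged ones. The pair described as control mouse 2 is titled control 1 and control 2, and which of both labels gives the mouse is not settled. Every sample is labelled as hippocampus under a treatment of the type preservation. The labels give no strain, sex, age or transgene promoter, and nothing in them says how granule cells were told from other cells.

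The hippocampus is a chain of excitatory neurons. Granule cells of the dentate gyrus send mossy fibres to the pyramidal neurons of field CA3, and these project to the pyramidal neurons of field CA1. Each field has its own set of marker genes, and granule cells have markers of their own, such as the transcription factor gene Prox1. Fibcd1, Wfs1, Spink8, Pou3f1 and Mpped1 are used as markers of CA1. Bok, Cpne4, Iyd and Coch are used as markers of CA3. Neurod6 marks pyramidal neurons of all fields.

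All 10 genes of a granule cell marker list lay above the array median on every array, among them Dsp, with a mean log2 intensity of 12.78 in transgenic and 12.94 in control mice, and Prox1, the transcription factor that specifies granule cells, with 9.16 and 9.28. Their differences had a median of -0.10 log2. Lying above the array median on every array was not particular to this list. It held for 7 of 8 astrocyte, 7 of 10 interneuron, 6 of 9 oligodendrocyte and 5 of 8 microglia genes on the array. It also held for 2 of 8 vascular and 1 of 6 mossy cell genes, and for 4 of the 10 pyramidal markers. Of further genes of the pyramidal fields on the array, it held for 0 of 5 in CA1, 3 of 4 in CA2 and 1 of 5 in CA3. A gene was counted if any of its probe sets met the rule, and the share over all genes was not computed. Intensities are linear and were scaled by the authors so that each array has the same trimmed mean. Precision is limited by how few mice and arrays there are. A floor of 10.1, the pooled 25th percentile of intensity, replaced lower values, which therefore have no order. Elavl4, which encodes HuD, did not separate the groups and so gave no check of the labels. Its 3 probe sets differed by -0.73 to -0.15 log2, all with intervals that span 0.

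Across mice the pyramidal markers showed no called difference between transgenic and control granule cells. Of the 10 genes, 7 passed the filter on low values and entered the test, which took 1 probe set per gene: Fibcd1, Wfs1, Pou3f1, Bok, Cpne4, Iyd and Neurod6. With limma 0 of these 7 had an adjusted p under 0.05, against 0 of 14678 genes in all (0%). None of the 7 had an unadjusted p under 0.05, and 632 of the 14678 genes did. The means of 2 members (Fibcd1 and Bok) were higher and those of 5 lower in transgenic mice, with a median difference of -0.25 log2, beside 7407 higher, 7271 lower and a median of 0.0026 over all genes tested. The standard errors were wide, with a median of 0.34 log2 over the 7 members, and the 95% intervals of 5 of them reached a difference of 2-fold in at least 1 direction. In these bulk samples fewer pyramidal cells and less RNA per cell cannot be told apart, nor can either be told from RNA of granule cells.

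**Figure D1:**
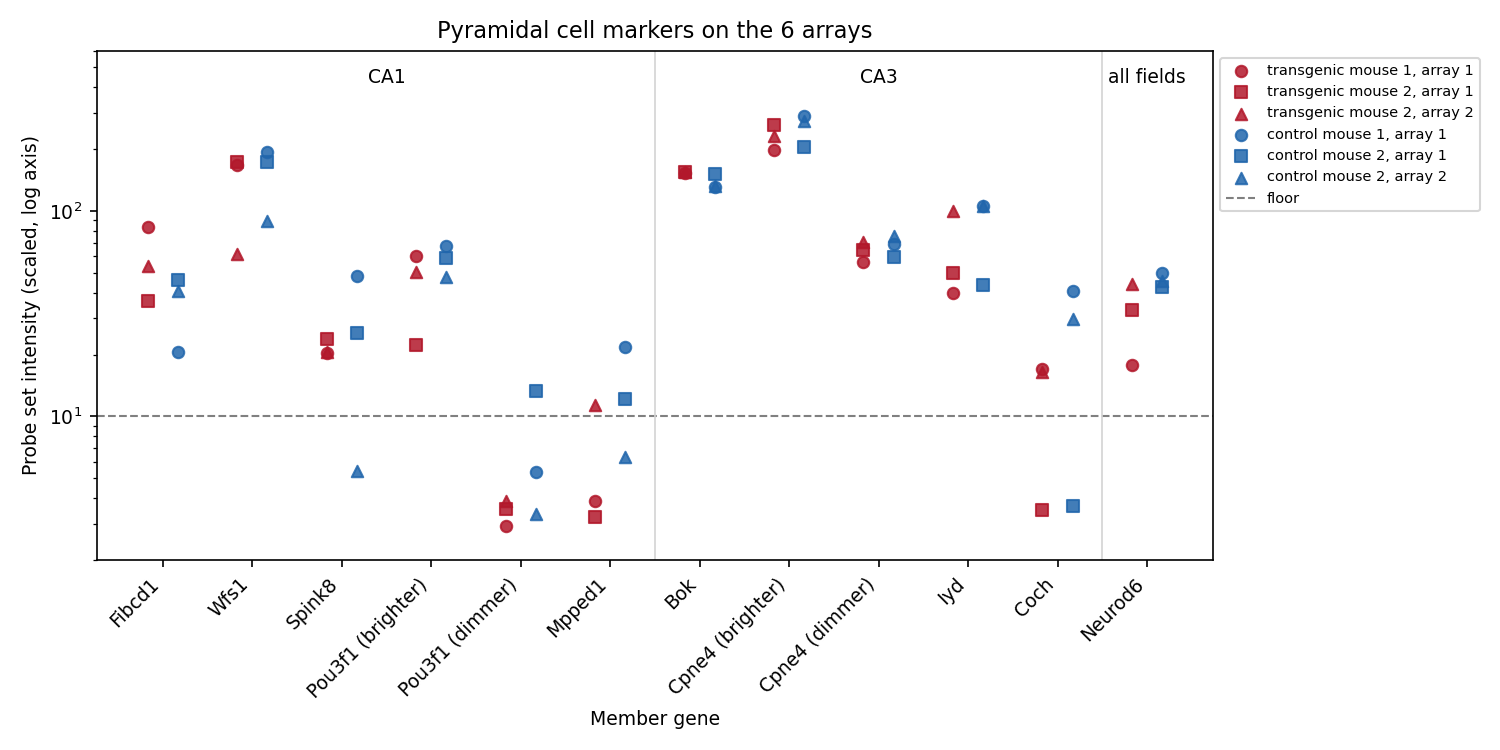
Scaled intensity (log axis) of every member probe set on the 6 arrays, transgenic arrays to the left of control arrays for each gene, with the floor of 10.1 as a dashed line. Symbols mark the mouse and array. Transgenic and control arrays overlap for every probe set other than Bok, and Pou3f1 (dimmer), Mpped1, Coch and Spink8 reach below the floor.

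For orientation in the genome, the sequences before the start sites of 3 members are shown. Neurod6 and Iyd had like profiles over the 6 arrays (Pearson's r = 0.72). Fibcd1 correlated negatively with Neurod6 (-0.73) and less so with Iyd (-0.55). These were not the most extreme pairs, which were Cpne4 and Iyd (0.74) and Fibcd1 and Cpne4 (-0.85). The sequences are the 250 bases before the RefSeq start site on build GRCm38.p6, 5′ to 3′ on the strand of the gene, with every match to the E-box CANNTG in capitals. This is the letter pattern that basic helix-loop-helix factors such as Neurod6 recognise, and it reads alike on both strands.
Neurod6 (chr6:55681264-55681513, minus strand): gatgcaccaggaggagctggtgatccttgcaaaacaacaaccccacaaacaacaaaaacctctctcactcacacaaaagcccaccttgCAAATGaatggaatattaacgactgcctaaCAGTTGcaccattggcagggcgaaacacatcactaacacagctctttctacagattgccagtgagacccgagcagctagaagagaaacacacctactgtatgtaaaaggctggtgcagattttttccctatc
Iyd (chr10:3540024-3540273, plus strand): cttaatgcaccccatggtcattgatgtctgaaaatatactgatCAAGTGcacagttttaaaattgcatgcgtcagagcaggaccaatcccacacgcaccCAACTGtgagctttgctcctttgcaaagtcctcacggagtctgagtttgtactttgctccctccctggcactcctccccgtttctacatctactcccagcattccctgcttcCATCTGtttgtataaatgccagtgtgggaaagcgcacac
Fibcd1 (chr2:31846006-31846255, minus strand): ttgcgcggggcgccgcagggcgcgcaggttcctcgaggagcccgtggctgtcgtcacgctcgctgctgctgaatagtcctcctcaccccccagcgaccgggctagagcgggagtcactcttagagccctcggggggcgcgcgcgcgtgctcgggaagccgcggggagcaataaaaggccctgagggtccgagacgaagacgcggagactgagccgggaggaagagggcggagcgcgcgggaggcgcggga
The Neurod6 window held 2 matches, the Iyd window 3 and the Fibcd1 window 0. These 3 were picked by their expression profiles, and over all members 6 of 10 windows held at least 1 match, where 66.2% of 32851 RefSeq windows of the same length did. Wfs1 and both Cpne4 windows held 1 each, Mpped1 held 1 in 1 of its 2 windows, and Bok and Coch held 0. The Fibcd1 window was also rich in G and C (71.6%), against 46% for Neurod6, 48.4% for Iyd and a median of 52.4% over all windows. The table had entries for 8 of the 10 members, and a match describes letters in a window, not a bound site.

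Of the CA1 markers, Fibcd1, which encodes a transmembrane receptor that binds acetylated molecules such as chitin, had the largest difference among the 7 tested members. Its intensity was 83.1 on the array of transgenic mouse 1 and 36.6 and 53.7 on arrays 1 and 2 of transgenic mouse 2, against 20.5 on the array of control mouse 1 and 46.3 and 40.7 on arrays 1 and 2 of control mouse 2. The array of transgenic mouse 1 was highest and that of control mouse 1 lowest, and the other 4 arrays overlapped. The difference was 1.02 log2 (SE 0.48, 95% interval -0.24 to 2.29, limma adjusted p = 0.999). Both mouse 1 arrays moved the value: it was 0.48 without control mouse 1, 0.57 without transgenic mouse 1, 1.56 without control mouse 2 and 0.65 with the floor at the median intensity.

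Wfs1, which encodes the endoplasmic reticulum protein wolframin, was low on 1 array of each group. In that order of arrays it read 167, 173 and 61.9 in transgenic mice, against 193, 172 and 89.4 in control mice. Array 2 of mouse 2 was the low one in both groups, and the remaining 4 arrays lay close together. The group difference was -0.23 log2 (SE 0.34, 95% interval -1.13 to 0.66), while array 2 minus array 1 was -1.48 log2 in transgenic mouse 2 and -0.95 in control mouse 2. The 2 low arrays also had the highest ratios of 3′ to 5′ control probe sets of Actb, 27.8 for the transgenic and 24.2 for the control array, against 14.8 and 19.4 on the other transgenic arrays and 17.4 and 22.7 on the other control arrays. The same ratio of Gapdh did not follow both low arrays: it was 8.63 on the low transgenic array, against 7.06 and 6.46 on the other transgenic arrays, but 7.87 on the low control array, between the 6.92 and 8.40 of the other control arrays. The part of RNA integrity and labelling, which these ratios read, in the low Wfs1 values was not tested. The sign of the Wfs1 difference changed without control mouse 1 (0.085), without transgenic mouse 2 (0.11), without array 2 of transgenic mouse 2 (0.14) and without array 1 of control mouse 2 (0.0040).

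Pou3f1, which encodes a POU domain transcription factor also known as Oct-6, read 60.1, 22.3 and 50.6 on the transgenic arrays, against 67.3, 58.7 and 47.5 on the control arrays at its brighter probe set. Array 1 of transgenic mouse 2 alone stood low, and the other values overlapped. The difference was -0.41 log2 (SE 0.33, 95% interval -1.28 to 0.46). It was -0.83 without transgenic mouse 1 and 0.012 without transgenic mouse 2. The dimmer probe set was above the floor on 0 transgenic arrays and on 1 control array (13.3), so it gave no measure of change.

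Spink8 and Mpped1 did not pass the filter. Spink8, which encodes a Kazal-type inhibitor of serine proteases, read 20.4, 23.8 and 20.6 on the transgenic arrays, against 48.1, 25.6 and 5.41 on the control arrays. The transgenic values lay within the range of the control values, and 1 control array was below the floor. The spread between control mice (SD 1.12 log2, n = 2) exceeded the group difference of -0.39. Mpped1, which encodes a metallophosphoesterase domain protein, read 3.90, 3.23 and 11.4 on the transgenic arrays, against 21.8, 12.2 and 6.35 on the control arrays. It was above the floor on 1 transgenic and 2 control arrays and above the array median on 0 arrays, so its difference of -0.58 log2 is set largely by the floor and was 0 when the floor was raised to the median intensity.

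Of the CA3 markers, Bok was the steadiest member and the one whose groups did not overlap. Bok encodes a relative of BCL-2 that promotes cell death. Its intensity was 152, 155 and 155 on the transgenic arrays, against 130, 151 and 131 on the control arrays. Every transgenic array was above every control array, but the lowest transgenic array exceeded the highest control array by 0.012 log2, and with quantile normalization the groups overlapped. The difference was 0.18 log2 (SE 0.15, 95% interval -0.22 to 0.59), a 1.13-fold ratio, and it ran from 0.13 to 0.24 over leave-outs. Thus 1 of 7 tested members was higher with no overlap, where 3.86% of all genes tested were, and 0 of 7 were lower with no overlap, where 4.22% of all genes were. A single gene does not show a difference from that background.

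Cpne4, which encodes a copine, a protein that binds membranes in response to calcium, was above the array median on every array at both of its probe sets. The brighter one read 197, 261 and 232 on the transgenic arrays, against 289, 205 and 273 on the control arrays. The groups overlapped, and array 1 of control mouse 2 lay with the lowest transgenic array. The difference was -0.25 log2 (SE 0.21, 95% interval -0.79 to 0.29). The dimmer probe set read 56.2, 64.7 and 70.2 on the transgenic arrays, against 69.2, 59.9 and 75.6 on the control arrays, and gave -0.15 log2. Both probe sets were lowest on the array of transgenic mouse 1.

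Iyd, which encodes the iodotyrosine deiodinase known from iodide salvage in the thyroid, fell into a low and a high set of 3 arrays that did not follow the groups. It read 39.8, 49.6 and 99.4 on the transgenic arrays, against 105, 43.7 and 105 on the control arrays. The array of transgenic mouse 1 and array 1 of both mice numbered 2 were low, while the array of control mouse 1 and array 2 of both mice numbered 2 were high. Array 2 minus array 1 was 1.00 log2 in transgenic mouse 2 and 1.27 in control mouse 2, larger in size than the group difference of -0.68 (SE 0.37, 95% interval -1.64 to 0.29). The group difference was -0.27 without transgenic mouse 1, -0.36 without control mouse 1 and -1.09 without transgenic mouse 2.

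Coch, which encodes cochlin, a secreted matrix protein of the inner ear, did not pass the filter. It read 17.1, 3.52 and 16.4 on the transgenic arrays, against 40.9, 3.65 and 29.9 on the control arrays. Array 1 of mouse 2 was below the floor in both groups. On the remaining arrays both control values were above both transgenic values. The difference of -0.85 log2 (95% interval -2.74 to 1.05) was -0.23 without control mouse 1 and -0.12 with the floor at the median intensity.

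Neurod6, a basic helix-loop-helix transcription factor of pyramidal neurons, read 17.7, 33.0 and 43.8 on the transgenic arrays, against 49.8, 42.7 and 45.5 on the control arrays. The transgenic mice were far apart (mean log2 4.70 ± 0.78, SD, n = 2 mice), while the control mice lay close together (5.55 ± 0.13, SD, n = 2 mice), and 1 transgenic array lay among the control arrays. The difference was -0.85 log2 (SE 0.39, 95% interval -1.89 to 0.18, limma adjusted p = 0.999). It rested mainly on transgenic mouse 1: without that mouse it was -0.30, and without transgenic mouse 2 it was -1.41. With the floor at the median intensity it was -0.35.

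**Figure D2:**
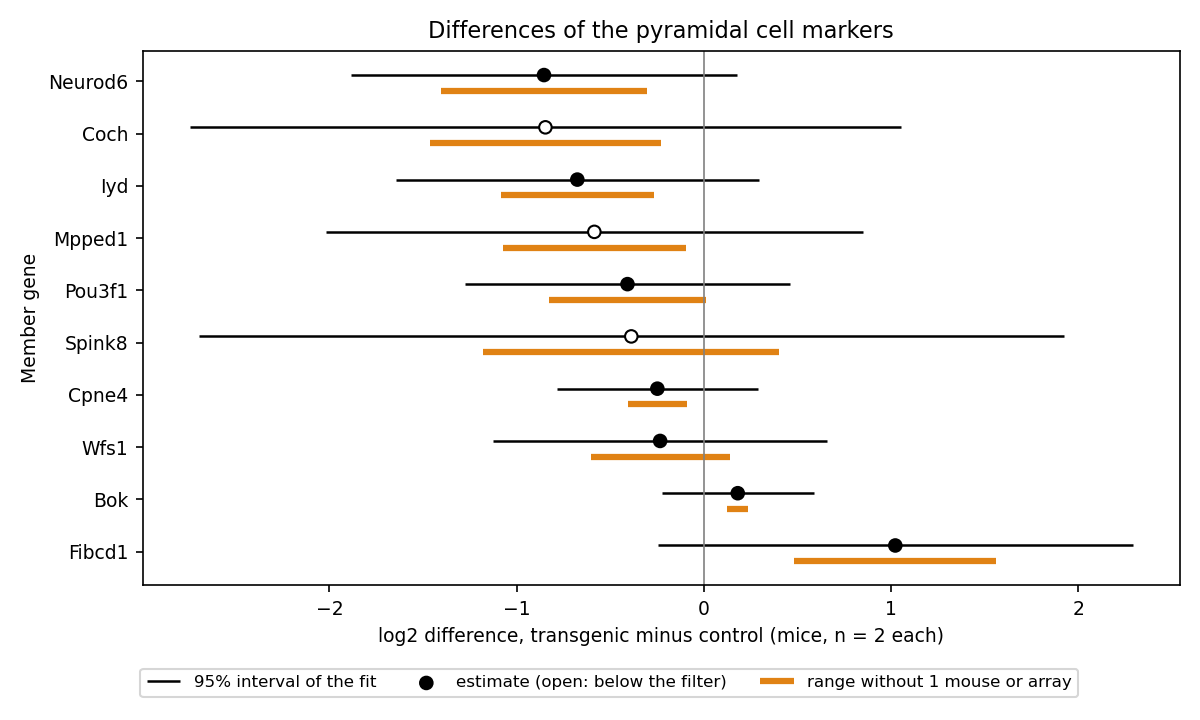
Difference of each member, transgenic minus control, on the log2 scale at its brightest probe set, with the 95% interval of the fit on 2 against 2 mice (thin line) and the range over leaving out 1 mouse or array (thick line). Open circles mark the 3 genes below the filter. All 10 intervals span 0, from the narrow one of Bok (-0.22 to 0.59) to that of Spink8 (-2.70 to 1.92).

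The members did not move as 1 group. Over the 6 arrays, which share mice, the likeness between members was measured by Pearson's r of log2 intensity. It ran from -0.85 (Fibcd1 and Cpne4) to 0.74 (Cpne4 and Iyd) over 21 pairs, and 14 of the 21 values were below 0. The same share over pairs of other genes was not computed. Iyd and Neurod6 gave 0.72, Fibcd1 and Neurod6 gave -0.73, and Fibcd1 and Iyd gave -0.55. The CA1 markers did not share a profile: Fibcd1 and Wfs1 gave -0.28, Wfs1 and Pou3f1 -0.0099, and Fibcd1 and Pou3f1 0.05. With the mean of each group taken off first, these pairs gave -0.20, -0.12 and 0.44, so the last value depends on the group differences. The members' intensities spanned a median of 1.49 log2 over the 6 arrays, beside 0.69 for all genes tested and 0.87 for the 8009 genes tested within the members' range of mean intensity. Between the 2 arrays of a mouse the median absolute difference of the members was 0.55 log2 in transgenic mouse 2 and 0.30 in control mouse 2, beside 0.30 and 0.28 for all genes tested and 0.34 and 0.35 for the 8009 genes in the same range of mean intensity. The members thus differed more than these 8009 genes between the arrays of transgenic mouse 2 and less between those of control mouse 2.

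The genes most like each member over the 6 arrays were found among all genes tested. For Neurod6 these were Igf1 (r = 0.99), which encodes insulin-like growth factor 1, and Tet1 (0.98), which encodes an enzyme that oxidises 5-methylcytosine. Igf1 read 23.5, 37.2 and 51.9 on the transgenic arrays, against 60.5, 45.2 and 51.7 on the control arrays, the same low array as Neurod6. For Wfs1 they were Ctu1 (0.996) and the potassium-chloride cotransporter gene Slc12a7 (0.995). Slc12a7 read 54.9, 50.2 and 6.09 on the transgenic arrays, against 56.4, 55.4 and 17.8 on the control arrays, low on the same 2 arrays as Wfs1. For Fibcd1 they were Prkab1 (0.99), which encodes a subunit of AMP-activated kinase, and Dicer1 (0.98). Bok was nearest to Frs3 (0.995) and Tbce (0.98), Cpne4 to Hmgcll1 (0.98) and Dclk3 (0.97), Iyd to Rell1 (0.97) and Twsg1 (0.97), and Pou3f1 to Slc52a3 (0.98) and Fancf (0.98). With 6 arrays such values are common: between 77 (Fibcd1) and 203 (Wfs1) genes exceeded r = 0.9 with a given member.

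On the arrays of the mice numbered 1, markers of other cells were extreme together with some members. Mean log2 levels of 4 lists, as the distance from the mean over the 6 arrays, were lowest on the transgenic mouse 1 array and highest on the control mouse 1 array: -0.59 and 0.86 for oligodendrocytes, -0.41 and 0.53 for interneurons, -0.32 and 0.49 for astrocytes, and -0.30 and 0.30 for microglia. Neurod6 (-1.06 and 0.44) and Cpne4 (-0.29 and 0.27) were also lowest and highest on these arrays. Iyd was lowest on the first (-0.76) and reached 0.64 on the second, level with array 2 of control mouse 2. Fibcd1 was highest and lowest on them (0.95 and -1.07), and the granule cell list lay between -0.12 and 0.10 on all 6 arrays. On arrays 1 and 2 of transgenic mouse 2 and then of control mouse 2, Neurod6 read -0.16, 0.25, 0.21 and 0.31. The oligodendrocyte list read 0.06, -0.14, 0.11 and -0.28 on these arrays. The mossy cell and vascular lists were lowest on array 1 of transgenic mouse 2 (-0.77 and -0.45). For the oligodendrocyte list, with 7 of 10 genes tested, the summed intensity of the tested genes ran from 5536 to 8196 on the transgenic and from 4761 to 12024 on the control arrays. For the interneuron list (8 of 10 tested) it ran from 2418 to 2572 and from 2316 to 2853, for the astrocyte list (7 of 8) from 8642 to 12107 and from 9959 to 15092, and for the microglia list (7 of 8) from 3025 to 3752 and from 3209 to 4564. By this sum the oligodendrocyte and interneuron lists were lowest on array 2 of control mouse 2, not on the array of transgenic mouse 1. The microglia sum was highest on array 1 of control mouse 2 (4564), above the array of control mouse 1 (4303). No intensity in the table is 0. The part of these cells in the member differences was not tested.

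**Figure D3:**
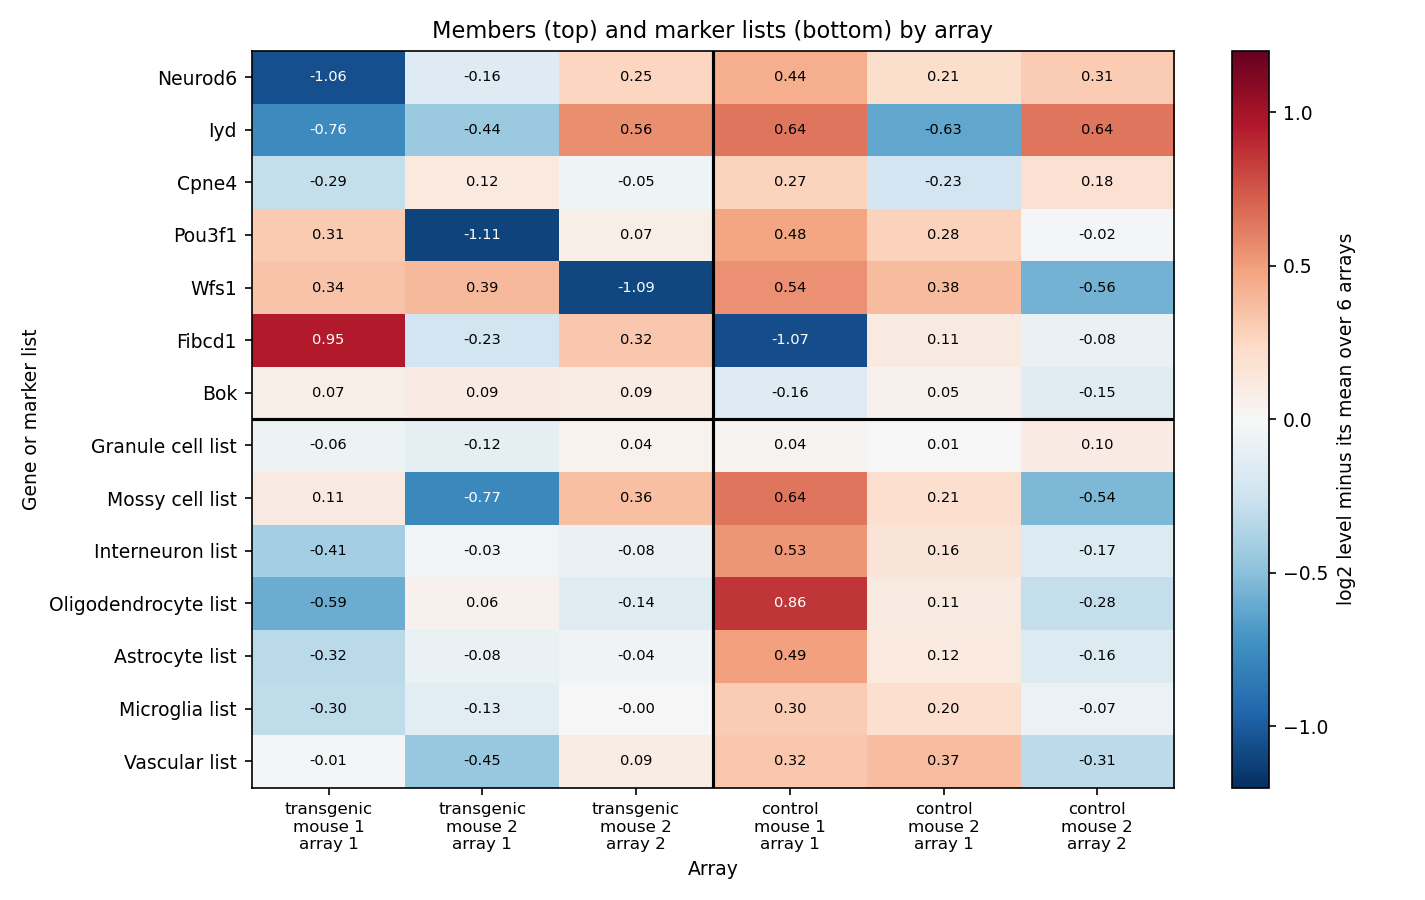
Log2 level of the 7 tested members (top) and mean level of 7 marker lists (bottom) on each array, as the distance from the mean over the 6 arrays; transgenic arrays are left of the vertical line and control arrays right of it. Neurod6, Cpne4 and the oligodendrocyte list share their lowest (transgenic mouse 1) and highest (control mouse 1) arrays, Fibcd1 shows the opposite, and Wfs1 is low on array 2 of mouse 2 in both groups.

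The title tag may mark a batch, and arrays with and without it include both groups. Within the re-LCM arrays (2 transgenic, 1 control) the Neurod6 difference was -1.04 log2, and within the other arrays (1 transgenic, 2 control) it was -0.0075. Fibcd1 gave 1.42 and 0.31, Iyd -1.24 and 0.55, Wfs1 -0.18 and -1.004, Pou3f1 -0.88 and -0.06, Cpne4 -0.35 and -0.03, and Bok 0.24 and 0.14, in the same order. Outside the tag the Neurod6 and Cpne4 differences were thus close to 0, and that of Iyd had the other sign, in a contrast of 1 transgenic array with the 2 arrays of 1 control mouse. A limma fit with the tag as a term, which takes the 6 arrays as separate samples, gave -0.53 for Neurod6, -0.19 for Cpne4 and -0.35 for Iyd, each again below 0, and a median of -0.35 over the 7 members. In the control group the tag and the mouse cannot be told apart, since the array of mouse 1 has the tag and both arrays of mouse 2 lack it. The median over the 7 members was -0.35 within and -0.0075 outside the tag.

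**Figure D4:**
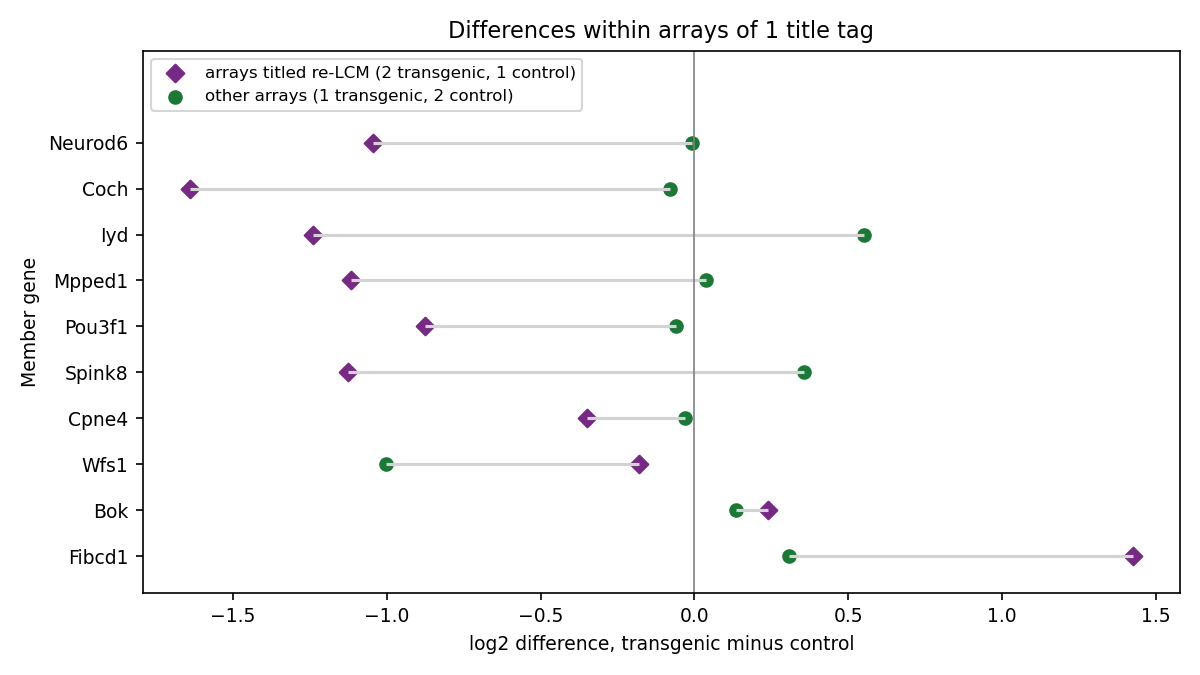
Log2 difference of each member, transgenic minus control, within the arrays titled re-LCM (diamonds) and within the other arrays (circles). Differences of Neurod6, Coch, Mpped1, Pou3f1 and Cpne4 lie near 0 among the other arrays, those of Iyd, Spink8 and, by little, Mpped1 change sign, and those of Bok and Fibcd1 are above 0 in both.

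Further genes of the pyramidal fields gave no called difference with limma either. Of 6 other CA1 genes 1 was tested, Ccn3, a secreted matrix-associated protein, at -0.50 log2 (SE 0.48), with 32.5, 49.2 and 33.8 on the transgenic arrays, against 82.4, 28.3 and 37.0 on the control arrays. Of 6 CA2 genes 3 were tested and 3 had higher means (median 0.10): Rgs14, a regulator of G protein signalling, at 0.10 (SE 0.19), the AMPA receptor auxiliary subunit Cacng5 at 0.23 (SE 0.28) and the calmodulin-binding Pcp4 at 0.0076 (SE 0.15). Pcp4 was bright, with a mean log2 intensity of 13.50 in transgenic and 13.49 in control mice. The granule cell gene Dsp had 12.78 and 12.94. Which cells gave the Pcp4 signal was not tested, so it cannot be read as that of pyramidal cells. Of 5 other CA3 genes 4 were tested, 2 with higher and 2 with lower means (median -0.02), among them the kainate receptor subunit Grik4 at -0.05 (SE 0.31), the adhesion gene Nectin3 at -0.23 (SE 0.20), Nnat at 0.01 (SE 0.18) and the cytokine signalling inhibitor Socs2 at 0.56 (SE 0.25). Of 6 markers of hilar mossy cells, the excitatory neurons next to the granule layer, 3 were tested and 3 had lower means (median -0.31), with the calcium-binding protein Calb2 at -0.53 (SE 0.67), Nmb at -0.31 (SE 0.18) and Ociad2 at -0.015 (SE 0.34).

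Relatives of the members in the same gene families were measured as well. Of 17 listed, 9 were tested, 5 with higher and 4 with lower means (median 0.03), and 0 were called by limma. Neurod2, a relative of Neurod6, was above the array median on every array and gave 0.39 log2 (SE 0.23), with 624, 600 and 467 on the transgenic arrays, against 371, 483 and 563 on the control arrays. Its lowest array was that of control mouse 1, where Neurod6 was highest. Neurod1 gave -0.17 (SE 0.19), and Pou3f3, a relative of Pou3f1, gave -0.03 (SE 0.18). Of the other copines, Cpne3 gave 0.22 (SE 0.15), Cpne1 0.19 (SE 0.19) and Cpne8 -0.55 (SE 0.28). Mpped2, the relative of Mpped1, gave 0.03 (SE 0.18). The remaining lists had lower means in 7 of 10 granule cell, 7 of 8 interneuron, 7 of 7 oligodendrocyte, 7 of 7 astrocyte, 7 of 7 microglia and 2 of 4 vascular genes tested, with medians of -0.10, -0.39, -0.65, -0.39, -0.33 and -0.15 log2, and limma called 0 genes of any of them. The somatostatin gene Sst gave -1.47 log2 (SE 0.26, limma adjusted p = 0.999), with 26.1, 28.1 and 7.33 on the transgenic arrays, against 56.0, 62.0 and 57.5 on the control arrays. The value of 7.33 is below the floor, so the size of the Sst difference depends in part on the floor. Sox10, a transcription factor of oligodendrocytes, gave -1.19 (SE 0.40), and the endothelial tight junction gene Cldn5 gave -1.15 (SE 0.34). The other vascular genes tested did not share the size of the Cldn5 difference: Kdr gave 0.35 (SE 0.25), Cdh5 0.01 (SE 0.19) and Acta2 -0.30 (SE 0.23). In Sst, Sox10 and Cldn5 every transgenic array was below every control array, as in 4.22% of all genes tested. This held for 1 of 8 interneuron, 1 of 7 oligodendrocyte and 1 of 4 vascular genes tested, and for 0 genes of each other list. Single genes picked from these lists do not show a difference from that background. The opposite, every transgenic array above every control array (3.86% of all genes tested), held for Gad1 of the interneuron list, which encodes an enzyme of GABA synthesis, at 0.11 log2 (SE 0.15), and for Cpne3.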

How the data were processed

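The study gives 6 arrays of total RNA. The authors deposited a linear intensity per probe set, scaled to a 2% trimmed mean of 150.001 on each array. Program, version and background correction: not given in the sources used here. The 64 control probe sets were left out. Values were floored at the pooled 25th percentile and taken to log2. Probe sets with a mean above the median of all were tested, 1 per gene (highest mean), which gave 14678 items called genes here, 11138 with a single symbol and 3540 probe sets without one. Log2 values were first averaged over the arrays described as 1 mouse, so that n is 2 transgenic and 2 control mice. The groups were compared by limma 3.58.1 (lmFit, eBayes; R 4.3.3), and p-values were adjusted over all genes by the Benjamini-Hochberg method. The fit had 2 residual and 2.70 prior degrees of freedom. A run on simulated data checked only that planted changes were returned in size on average, which does not measure the power of the fit. Members below the filter were read from the same fit on all 45037 probe sets. The labels do not say whether the 2 arrays of a mouse come from separate captures.

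Symbols came from the platform annotation, and all 10 members matched RefSeq by gene identifier. Named genes were all members, up to 4 genes of smallest p per list (Prox1, Gad1, Neurod1, Pou3f3 and Mpped2 were added after their values were seen), and the 2 genes most like each tested member. The members, lists and alternatives were chosen with earlier results of these data known. Figures were drawn with matplotlib 3.10.9.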

Additional observations from a re-analysis of the deposited data

How the results depend on the processing

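Limma called no member under any alternative fit. Of 197 member values under 20 alternatives, 7 changed sign in fits across mice or arrays, and Iyd, Spink8 and Mpped1 also changed sign within the arrays without the tag. The cause was not tested. Over leaving out a mouse, the difference of Wfs1 ran from -0.58 to 0.11, that of Pou3f1 from -0.83 to 0.012 and that of Spink8 from -1.18 to 0.40. Over leaving out an array of mouse 2, Wfs1 ran from -0.60 to 0.14 and was 0.0040 without array 1 of control mouse 2. Spink8 was 0.14 with the mouse as a random block. The correlation between arrays described as 1 mouse, estimated over genes for that fit, was -0.54. Within a group such arrays were thus less alike than arrays of different mice. Whether the described mouse is the right unit of replication was not tested. The median over the 7 tested members ran from -0.55 to 0.012 over leaving out a mouse and was -0.0075 within the arrays without the tag. Limma called 0 genes of 14678, and 1 gene, no member, with a variance trend and robust variance. Groups did not overlap for 1185 genes, for 1996 without the filter on low values, which tests more genes, and for 2303 to 7170 without a mouse. They did not overlap for 2720 and 2807 genes without array 1 or 2 of transgenic mouse 2, and for 2472 and 2628 without array 1 or 2 of control mouse 2, where fewer arrays are compared.

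With the mouse number as a replicate block 0 genes were called, and the member differences were those without it (median -0.25), as the design is balanced. Mice of 1 number in both groups share the number, and the arrays of both mice numbered 1 also share the tag re-LCM. Mouse 1 minus mouse 2 in transgenic mice correlated over genes with the same difference in control mice at 0.033. With 1 such difference per group, this value cannot show whether the numbers mark a pairing or a batch. The 2 mice per group limit precision, and values of dim members depend on the floor.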
